A study of Caenorhabditis elegans with 83 samples.

Results

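Binding of the cohesin subunit SMC-3 was mapped by ChIP-seq in whole Caenorhabditis elegans larvae of strain HW04, in 2 libraries labelled 1 h auxin and 2 labelled no auxin. These 4 samples, chosen by strain and antibody, are part of a series of 83 samples of ChIP-seq, Hi-C and RNA-seq on cohesin in this worm. Each sample has 1 list of peaks called on a single library. The worms of both groups were L2/L3 larvae hatched in the absence of food and then grown for 24 h at 22 °C. The group labelled auxin was kept for 1 h on plates with 1 mM auxin before collection, and the group labelled no auxin was kept on plates without it. The antibody was SMC3 (SDIX, Q4469) in every library. HW04 carries the same genotype label in both groups, and which protein it was built to degrade is stated neither in the labels nor in the files used here. Whole animals were used, so the tissues that contribute a peak cannot be told apart, and fewer bound cells and less binding per cell cannot be told apart either. The series' design text calls its replicates biological, while the labels do not say whether the 2 libraries of a group came from separate cultures, so p-values measure only the spread between these libraries. Read counts are not part of the lists, so sequencing depth is unknown. Combined SMC-3 sets of strains CA1200 and JK05 after 1 h of auxin are set beside the 4 lists. RNA counts are from strains CA1200, JK05 and JK06 after 4 h of 1 mM auxin.

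Cohesin is a ring-shaped complex of the SMC proteins SMC-1 and SMC-3 closed by a kleisin subunit. It holds sister chromatids together, and in interphase it extrudes loops of DNA. The loader protein PQN-85, the worm relative of NIPBL, puts the ring on chromatin, and WAPL-1 takes it off. In an auxin-inducible degron strain the plant F-box protein TIR1 marks the tagged protein for destruction once auxin is added, while untagged proteins are left in place.

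The labels and the names inside the peak lists state opposite conditions for these 4 samples. Peaks of both lists labelled auxin carry names with a no-auxin tag, from libraries HW51 and HW55 called against inputs HW58 and HW59. Peaks of both lists labelled no auxin carry names with an auxin tag, from libraries HW61_1 and HW65_1 called against inputs HW68_1 and HW69_1. In the PQN-85 lists of the same strain the names and the labels state the same condition. There the inputs HW68_1 and HW69_1 belong to the lists labelled auxin, and HW58 and HW59 to the lists labelled no auxin. The SMC-3 lists labelled auxin therefore share their inputs with the PQN-85 lists labelled no auxin. Groups below follow the labels. Under the peak names the 2 groups change places, so each difference given as labelled auxin minus labelled no auxin keeps its size and takes the opposite sign. The files used here do not settle which reading is right.

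The 2 lists labelled auxin were longer and covered more of the genome. They held 7457 and 8196 peaks, against 4305 and 4091 peaks in the lists labelled no auxin, and the groups did not overlap. The mean difference on the log2 scale was 0.90, a 1.86-fold higher number with the auxin label. By the peak names the same difference was −0.90, with fewer peaks after auxin. Peaks covered 6.05 and 5.89 Mb in the lists labelled auxin, against 2.46 and 2.2 Mb in those labelled no auxin. Covered length therefore differed by 1.36 on the log2 scale, or 2.57-fold, which is more than the number of peaks did. With 2 libraries against 2, the two-sided exact permutation test has 6 splits and cannot go below p = 0.33, and both differences gave that value. Over the 10 measures compared this way, the Benjamini-Hochberg adjusted p of these exact tests was 0.37 for the 9 measures whose groups did not overlap. No comparison between the groups could therefore pass a threshold of 0.05.

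**Figure D1:**
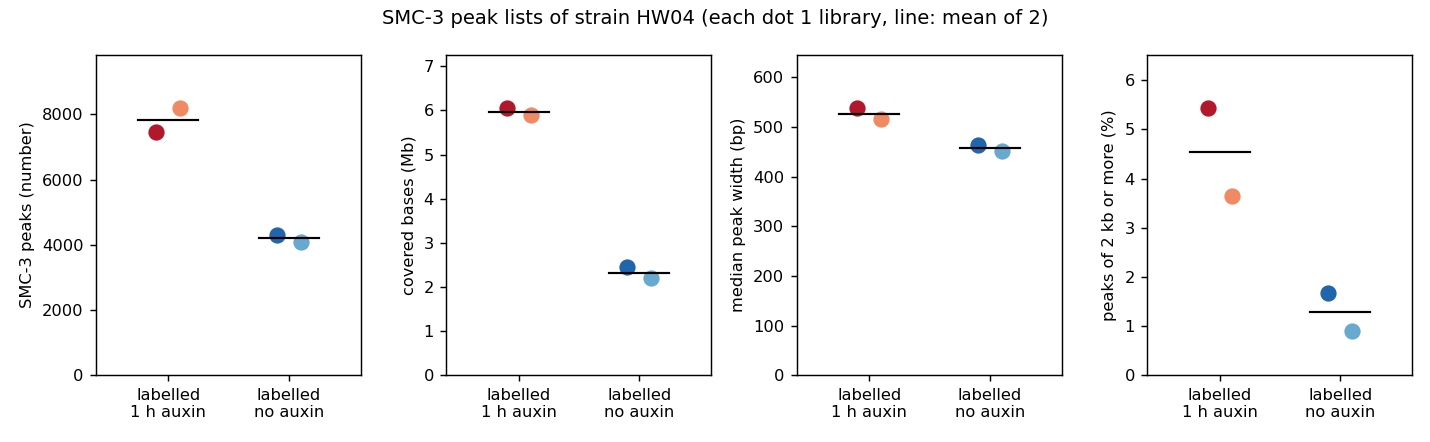
Number of SMC-3 peaks, bases covered, median peak width in bp and share of peaks of 2 kb or more in percent, with 1 dot per library and a line at the mean of 2 libraries. Both dots labelled 1 h auxin (left) lie above both dots labelled no auxin (right) in every panel. The names inside the lists give the opposite conditions.

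Peaks were also wider in the lists labelled auxin, and broad peaks made up a larger share of those lists. Median widths were 538 and 516 bp in the lists labelled auxin, against 464 and 451 bp in those labelled no auxin, a difference of 0.20 on the log2 scale (1.15-fold, exact permutation p = 0.33). Peaks of at least 2 kb numbered 405 and 298 with the auxin label, against 72 and 37 without it. As a share of the list this was 4.53% ± 1.27 in the lists labelled auxin, against 1.29% ± 0.54 in those labelled no auxin (SD, n = 2 each, exact permutation p = 0.33). The widest peak of each list was 20336 and 18935 bp with the auxin label, against 11014 and 6232 bp with the no-auxin label. Longer lists hold more weak peaks, which are narrow here, so the lists were also cut to the 4091 highest-scoring peaks each. At equal length, 9.53% and 6.89% of the peaks labelled auxin were 2 kb or wider, against 1.76% and 0.904% of those labelled no auxin. The difference was 6.88 percentage points at equal length and 3.25 points over the full lists. The cut dropped weak, narrow peaks mostly from the lists labelled auxin, which raises their share of broad peaks. It left no-auxin replicate 2 whole, so the larger value does not show a larger difference in broad peaks.

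The fold enrichment of ChIP over input at the summit is the authors' own value for each peak, and it is given per list with no test. Its median was 1.96 and 2.01 in the lists labelled auxin, and 2.2 and 2.00 in the lists labelled no auxin. The highest value was 7.05 and 6.53 in the lists labelled auxin, and 7.79 and 4.54 in those labelled no auxin. Scores are 10 times the −log10 q. Of the peaks labelled auxin, 3436 and 4670 scored at least 100, against 2177 and 2052 of those labelled no auxin. At that stricter score the number of peaks differed by 0.92 on the log2 scale, close to the 0.90 over the full lists.

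Across the 6 chromosomes every one had more peaks in both lists labelled auxin, and the ratio was highest on X. The fold in number ranged from 1.74 on chromosome I to 1.85 on chromosome II among the autosomes and was 2.26 on X. Peak density on X was 75 and 79.0 per Mb in the lists labelled auxin, against 37.1 and 31.3 per Mb in those labelled no auxin. Chromosome III was the densest, with 95.9 and 109.8 peaks per Mb labelled auxin, against 59.1 and 57.8 labelled no auxin. Chromosome V was the sparsest, with 55.2 and 58.5 per Mb labelled auxin, against 32.4 and 30.1 labelled no auxin.

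X, the target of dosage compensation in hermaphrodites, thus took a larger share of the lists labelled auxin. That share was 17.8% and 17.1% (exact Clopper-Pearson 95% intervals 17.0 to 18.7 and 16.3 to 17.9, counting error only) in the lists labelled auxin. It was 15.3% and 13.5% (intervals 14.2 to 16.4 and 12.5 to 14.6) in the lists labelled no auxin. X makes up 17.7% of the spanned bases, so the lists labelled auxin sat near that value and those labelled no auxin below it. The difference of 3.03 points had an exact permutation p of 0.33, and it was 2.11 points both in lists of equal length and at scores of 100 or more. Over the 6 chromosomes the adjusted p of the exact test was 0.667 for X. Inside the autosomes, the middle stretch of each chromosome, from 25% to 75% of its length, held 59.7% and 57.9% of the summits labelled auxin, against 59.1% and 56.3% of those labelled no auxin. These ranges overlap, with a difference of 1.14 points (exact permutation p = 0.667).

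**Figure D2:**
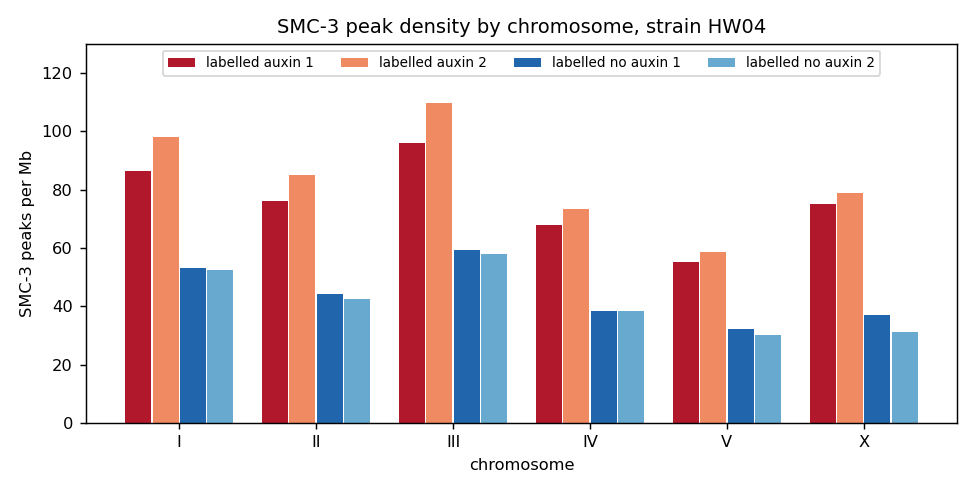
SMC-3 peaks per Mb (vertical axis) on each chromosome, with a bar for each of the 4 libraries, those labelled auxin to the left of those labelled no auxin. On X the bars labelled auxin reach 75 and 79.0, against 37.1 and 31.3 for those labelled no auxin.

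Merging peaks that shared at least 1 bp gave 9486 sites over the 4 lists. All 4 lists called 2786 of them, or 29.4%. Both lists labelled auxin and neither of the others called 1793 sites, or 18.9%. That count was 3501 without auxin replicate 1 and 3138 without auxin replicate 2, when 1 list labelled auxin was enough for a call. Only 28 sites, or 0.295%, were called in both lists labelled no auxin and neither labelled auxin. Joining summits within 250 bp in place of overlapping peaks gave 132 such sites, and leaving out 1 library at a time gave 62 to 176. Under the peak names those 1793 sites would be sites without a call after auxin, and the 28 would be sites called after auxin alone. A single list held 1345 sites in auxin replicate 1, 1708 in auxin replicate 2, 148 in no-auxin replicate 1 and 63 in no-auxin replicate 2. The shorter lists were thus largely contained in the longer ones: 89.7% to 95.7% of the peaks labelled no auxin overlapped a peak of a list labelled auxin, while 45.1% to 47.4% of the peaks labelled auxin overlapped one labelled no auxin. Cut to equal length, the 4 lists overlapped one another by 70.4% to 81.4%. Lists of the same label then shared 76.3% to 78.8%, which lies inside that range.

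How often the other pair of lists called a peak went with its place in the score order of its own list. Peaks were put in 10 groups of about equal size by score, with tied scores kept together. In the top group, 98.1% and 96.8% of those labelled auxin lay at a peak of both lists labelled no auxin. In the bottom group labelled auxin, 3.38% and 1.67% did, and 84.5% and 87.5% met no peak in either list labelled no auxin. In the other direction, 64.1% and 72.0% of the bottom group in the lists labelled no auxin still met a peak of both lists labelled auxin. Summits at the 2786 shared sites coincided closely. Their median distance between 2 lists was 23 to 29 bp over the 6 pairs of lists, and 84.9% to 89.3% lay within 100 bp of each other.

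**Figure D3:**
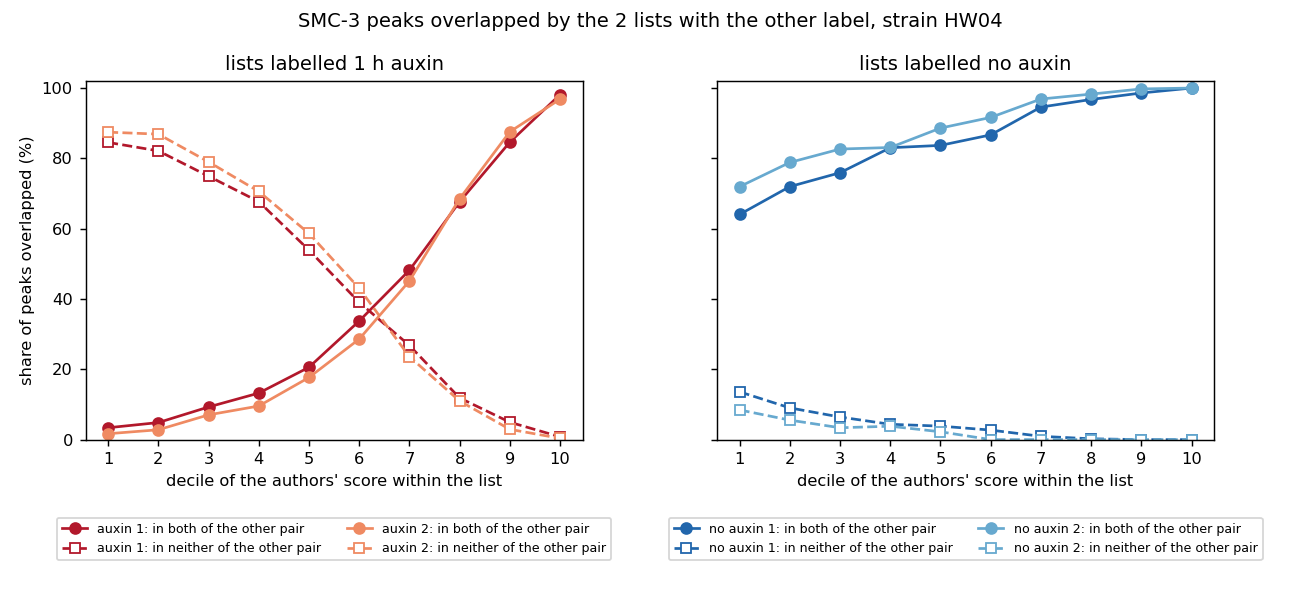
Share of SMC-3 peaks in percent that overlap a peak in both (filled) or in neither (open) of the 2 lists with the other label, in 10 groups by the authors' score within each list (1 lowest, 10 highest). For lists labelled auxin (left) the filled points climb to 98.1% and 96.8% in the top group. For lists labelled no auxin (right) they start at 64.1% and 72.0% in the bottom group.

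Sites with a call in both lists labelled auxin alone differed in place from the sites of all 4 lists. They lay on X in 22.4% (401 of 1793, exact 95% interval 20.5 to 24.4), against 14.5% (405 of 2786, 13.2 to 15.9) of sites in all 4 lists. Within 500 bp of a gene start lay 23.6% of the sites labelled auxin alone, against 43.4% of sites in all 4 lists. Inside genes but farther from any start lay 32.9%, against 21.9%, and between genes 43.5%, against 34.6%. The 4879 sites with other patterns of calls were close to this, with 26.3% near starts, 33.2% inside genes and 40.4% between genes. That gene context was thus not particular to sites labelled auxin alone. On X lay 17.1% of the sites with other patterns and 17.3% of all 9486 sites. Only 2.23% of sites labelled auxin alone were 2 kb or wider as merged sites, against 14.1% of sites in all 4 lists. Among sites with other patterns it was 1.70%. A merged site spans every list that calls it, so sites called in more lists can be wider by that alone. Within the lists labelled auxin the median peak width was 512 and 495 bp at sites labelled auxin alone. It was 631.5 and 651.5 bp at sites of all 4 lists. Seen per chromosome, 40.7% of the X sites called in both lists labelled auxin were called in neither list labelled no auxin, against 30.0% of the autosomal ones (29.2% to 30.8% over the 5 autosomes). These shares describe sites defined by the lists themselves and carry no test. The sites labelled auxin alone also had the lower scores, with medians at percentiles 35.5 and 33.7 of their lists, against 79.2 and 81.3 for the sites in all 4 lists.

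The higher number with the auxin label was spread over the genome. In windows of 100 kb, 684 of 1005, or 68.1%, held more sites in both lists labelled auxin than in either list labelled no auxin. A single window, on chromosome IV from 14500001 to 14600000, held more in both lists labelled no auxin, with 2 sites in each against 1 in each list labelled auxin. Of the 4 windows with the most sites labelled auxin alone, with 11 each, 2 lay on X, 1 on chromosome I and 1 on chromosome II. The chromosome I window from 7500001 to 7600000 had 27 and 25 sites labelled auxin, against 13 and 5 labelled no auxin. The chromosome II window from 7600001 to 7700000 had 23 and 23 labelled auxin, against 8 and 6 labelled no auxin. In the X window from 13100001 to 13200000 the lists labelled auxin called 25 and 22 sites, against 5 and 5 in those labelled no auxin. The X window from 13300001 to 13400000 had 23 and 19 sites labelled auxin, against 5 and 5 labelled no auxin.

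The highest-ranked site of all 4 lists lay near ftt-2, which encodes a 14-3-3 protein. It spanned X:11602609-11608534, with its summit 551 bp upstream of the ftt-2 start, and ranked at percentile 99.9 or above by score in every list. Its peak was 5840 and 5403 bp wide in the lists labelled auxin, against 2086 and 1360 bp in those labelled no auxin. The fold enrichment there was 5.85 and 6.24 in the lists labelled auxin, and 7.79 and 4.54 in those labelled no auxin. This site thus had one of the tallest summits under either label, and the peaks labelled auxin extended farther from it. Coordinates are those of the deposited lists, whose genome build is not stated for HW04.

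A site at rpa-2, which encodes a subunit of the single-strand binding protein RPA, differed in that its width hardly changed with the label. It spanned I:4769027-4770267, 96 bp upstream of the gene start. Its peak measured 1134 and 1082 bp in the lists labelled auxin, against 1241 and 1187 bp in those labelled no auxin. The fold enrichment was 5.81 and 5.06 with the auxin label, and 6.37 and 3.44 with the no-auxin label. The site at IV:4727656-4728356, 2582 bp upstream of E04A4.3, was as narrow, with 576 and 701 bp labelled auxin and 539 and 577 bp labelled no auxin. At Y39E4B.6 (III:13067446-13072952, summit 88 bp upstream) the widths parted again. They were 5044 and 2059 bp in the lists labelled auxin, against 1826 and 732 bp in those labelled no auxin. Near F20B6.9 (X:4208458-4211630) the peaks were 3173 and 2441 bp wide labelled auxin, against 2086 and 2015 bp labelled no auxin. The other 3 of the 8 highest-ranked sites lay near the ribosomal protein gene rpl-35, K07D4.2 and K08D10.11, and were at most 683 bp wide as merged sites.

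The 3 widest sites called in all 4 lists were long tracts in the lists labelled auxin and shorter peaks in the others. At pro-1 (II:10540332-10560667) a single peak of 20336 and 18935 bp covered the site in the lists labelled auxin. The strongest peak there was 962 and 4049 bp wide in the lists labelled no auxin. Around unk-1 (X:8012197-8029687) the strongest peak was 17362 and 10246 bp wide labelled auxin, against 548 and 842 bp labelled no auxin. At Y111B2A.12 (III:12603933-12621157) it was 17178 and 15237 bp wide labelled auxin, against 827 and 773 bp labelled no auxin. A further peak of 780 and 531 bp lay in that site in the lists labelled no auxin. The width of the strongest peak thus does not give all the binding under that label. The site at Y111B2A.12 ranked at percentile 98 or above in every list, so its summit was called strongly under both labels. These sites were picked by their merged width, which the longest peak sets, so the widths are a description.

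Among sites called in both lists labelled auxin alone, the highest-ranked lay near T05D4.2 (III:13562514-13564182), 150 bp upstream of the start. It had fold enrichments of 3.05 and 3.28 and ranked at percentiles 94.4 and 92.1 of those lists, while neither list labelled no auxin had a peak there. The next was a broad site at cyn-16, which encodes a cyclophilin, with peaks of 3031 and 2787 bp and fold enrichments of 4.33 and 3.34. Others followed in gcn-1 and near cra-1, bet-2 and got-1.2, the last of which encodes an aspartate aminotransferase. All 8 highest-ranked sites of this class also had a peak in the combined SMC-3 set of strain CA1200. Over all 1793 sites of the class that share was 61.5%. These 8 were picked by score, and of all peaks labelled auxin scoring at least 100, 92.1% and 83.5% overlapped that set. The highest-ranked site labelled no auxin alone lay at the histone gene his-60 (IV:7487852-7488321, 82 bp upstream), with fold enrichments of 2.63 and 2.08. It ranked at percentiles 62.0 and 46.4 of the lists labelled no auxin, so this class had no site among the strong peaks of its lists. The second of that class, near the chemoreceptor gene srd-48, reached percentiles 54.2 and 44.8.

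SMC-3 summits clustered just upstream of gene starts under both labels. Within 500 bp of the nearest gene start lay 30.5% and 32.4% of the summits labelled auxin, against 38.1% and 39.0% of those labelled no auxin. The means were 31.5% ± 1.39 labelled auxin and 38.5% ± 0.68 labelled no auxin (SD, n = 2 each), a difference of −7.07 points (exact permutation p = 0.33). Of these near summits, 80.7% and 84.6% lay on the upstream side in the lists labelled auxin, against 84.7% and 87.2% in those labelled no auxin. Their median position was −133 and −142 bp in the lists labelled auxin, against −146.5 and −151 bp in those labelled no auxin. Position relative to the start therefore differed by under 20 bp between any 2 lists, while the share of summits at starts differed.

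Away from starts, 29.9% and 28.8% of the summits labelled auxin lay inside genes, against 26.1% and 24.5% of those labelled no auxin, a difference of 4.04 points. Between genes lay 39.6% and 38.8% of the summits labelled auxin, against 35.8% and 36.5% of those labelled no auxin, a difference of 3.03 points. The exact permutation p was 0.33 for both. List length moved with these differences. In lists of equal length, 37.2% and 41.7% of the summits labelled auxin lay within 500 bp of a start, against 39.0% and 39.0% of those labelled no auxin. The difference then was 0.44 points, and the difference inside genes was −0.87 points, both of the opposite sign. Between genes lay 38.0% and 35.2% of the summits labelled auxin at equal length, against 35.8% and 36.5% of those labelled no auxin. These ranges overlap, with a difference of 0.43 points (exact permutation p = 1). At scores of at least 100 the starts held 38.8% and 40.6% of the summits labelled auxin, against 45.9% and 47.3% of those labelled no auxin, as far apart as in the full lists.

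**Figure D4:**
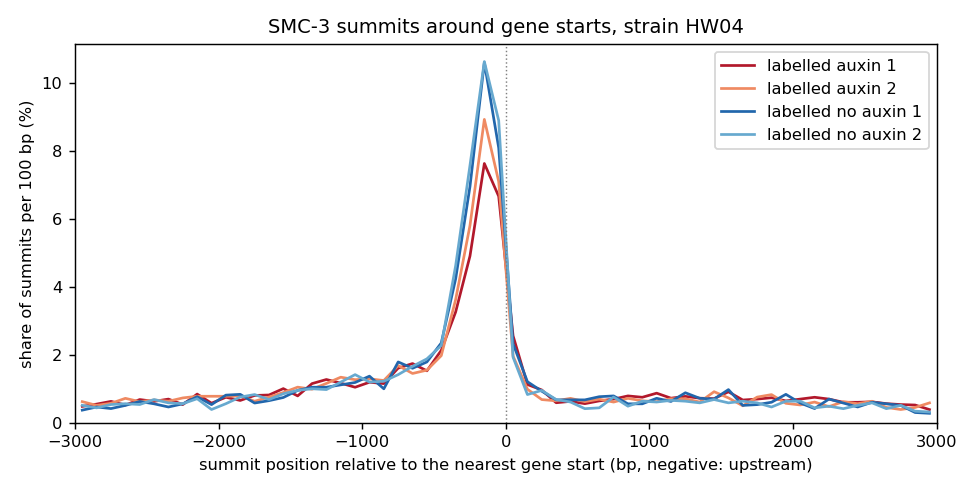
Share of SMC-3 summits in percent per 100 bp (vertical axis) by distance to the nearest gene start in bp, negative upstream, with 1 line per library. All 4 lines peak upstream of the start, with the lines labelled auxin below those labelled no auxin at the maximum. Median positions within 500 bp of a start lie between −133 and −151 bp.

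Starts of highly expressed genes carried SMC-3 most often, in each of the 4 lists. Genes were put in 5 bins of equal size by the authors' mean normalized RNA-seq count, over libraries of other strains, per kb of gene span. Those libraries were of strains CA1200, JK05 and JK06 after 4 h of 1 mM auxin. The counts thus include worms depleted of SMC-3 or of WAPL-1. In the highest bin, 30.9% and 35.7% of starts had a summit within 500 bp in the lists labelled auxin, against 24.4% and 23.5% in those labelled no auxin. In the lowest bin the shares were 2.34% and 2.39% labelled auxin, against 1.72% and 1.64% labelled no auxin. The share went up from each bin to the next in every list. The ratio of starts occupied in both lists labelled no auxin to those in both labelled auxin was 0.665 to 0.806 over the 5 bins, with the highest value in the lowest bin. RNA was measured in strains other than HW04, so these levels order genes and say nothing of RNA in HW04.

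**Figure D5:**
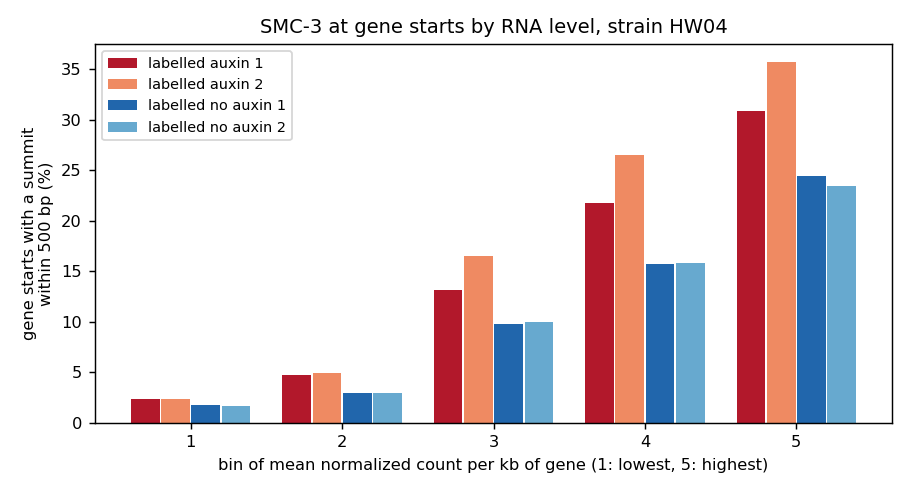
Percent of gene starts with an SMC-3 summit within 500 bp (vertical axis) in 5 bins of genes by mean normalized count per kb of gene, with a bar for each of the 4 libraries, those labelled auxin to the left. In the highest bin the bars stand at 30.9% and 35.7% labelled auxin and at 24.4% and 23.5% labelled no auxin.

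Over all 18607 genes with coordinates, 2341 starts (12.6%) were occupied in both lists labelled auxin, against 1653 (8.88%) in both labelled no auxin. A start counts as occupied where a summit lies within 500 bp. In both lists labelled auxin and in neither labelled no auxin were 469 starts (2.52%), and 34 starts showed the reverse pattern. Genes for ribosomal proteins, which are transcribed in all cells, were occupied more often than that background. Of 45 genes of the large subunit, 40 were occupied in both lists labelled auxin and 34 in both labelled no auxin. Of 30 genes of the small subunit, 21 were occupied in both lists labelled auxin and 22 in both labelled no auxin. The summit next to rpl-35 lay 423 and 429 bp upstream of the start in the lists labelled auxin, against 438 and 427 bp in those labelled no auxin. Its fold enrichment was 4.50 and 4.32 labelled auxin, and 5.70 and 4.31 labelled no auxin. The rpl-15 start ranked at percentile 99.1 by score or above in every list, and the strongest of the small subunit, rps-15, at 95.5 or above. At rpl-3 the summit lay 273 and 283 bp upstream labelled auxin, against 287 and 281 bp labelled no auxin. At rps-20 it lay within 19 bp of the start in every list.

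Subunits of the vacuolar ATPase, the proton pump of acidic organelles, were occupied for 9 of 20 genes under each label. The highest-ranked was vha-8, with fold enrichments of 3.22 and 2.83 labelled auxin, and 3.45 and 2.01 labelled no auxin. Heat shock genes, which encode chaperones, were occupied for 7 of 19 genes in both lists labelled auxin and for 8 in both labelled no auxin. The strongest was hsp-1, a constitutive HSP70, at 4.40 and 4.75 labelled auxin, and 5.14 and 3.62 labelled no auxin. For body muscle genes the counts were 5 of 25 labelled auxin and 3 labelled no auxin, led by the actin gene act-2. Collagen genes, which build the cuticle, were occupied for 7 of 154 labelled auxin and 6 labelled no auxin, with col-72 and col-71 at the top. The shares of all genes were 12.6% labelled auxin and 8.88% labelled no auxin, and the vacuolar ATPase and heat shock counts lie above them. The body muscle counts are near these shares, from which they are apart by few genes, and the collagen counts lie below them.

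Counts for gene families with cell-specific expression are set against the same shares of all genes, 12.6% labelled auxin and 8.88% labelled no auxin. Nuclear hormone receptor genes had 15 of 260 starts occupied labelled auxin and 7 labelled no auxin, with nhr-88 the highest-ranked. Of 209 C-type lectin genes, which encode secreted proteins of immunity among others, 2 were occupied labelled auxin and 3 labelled no auxin. Of 1069 chemoreceptor genes, 4 were occupied labelled auxin and 5 labelled no auxin, and sri-5 was the strongest at 5.22 and 4.28 labelled auxin, and 4.63 and 3.56 labelled no auxin. Tissue transcription factors had 1 of 20 starts occupied under each label, that of the FOXO gene daf-16. No start of the 7 Hox genes including pal-1 and none of the 17 P granule genes was occupied in both lists of either label. For these last 3 lists, which are short, the counts are near what the shares of all genes would give. Single lists called 1 of each, lin-39 in auxin replicate 2 and mut-16 in auxin replicate 2 and no-auxin replicate 2. Changing the window to 250 bp lowered the large subunit counts to 12 labelled auxin and 10 labelled no auxin, since most of their summits lay farther upstream.

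Some genes of the cohesin machinery had SMC-3 summits at their own starts. Of 12 genes for cohesin and its regulators, 4 were occupied in both lists under each label, and they were the same 4 genes. Another 6 had no summit near the start in any list. Over all genes the shares were 12.6% labelled auxin and 8.88% labelled no auxin. These were scc-2, which encodes the loader PQN-85, its partner mau-2, the release factor gene wapl-1, and smc-3 itself. At smc-3 the summit lay 162 and 175 bp upstream in the lists labelled auxin, against 163 and 152 bp in those labelled no auxin. Its fold enrichment was 2.42 and 3.17 labelled auxin, and 3.42 and 2.36 labelled no auxin. At wapl-1 it was 2.65 and 3.16 labelled auxin, and 4.04 and 2.21 labelled no auxin. Of 16 genes for condensins and dosage compensation, 7 were occupied labelled auxin and 3 labelled no auxin. The 3 were set-4, a methyltransferase gene for H4K20, hcp-6, a condensin subunit gene, and sdc-2, which starts dosage compensation on X. Only 2 of the 7, capg-1 and dpy-30, had a summit near the start in neither list labelled no auxin, and both had fold enrichments under 2 in both lists labelled auxin.

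Inducible heat shock genes were among the 34 starts occupied in both lists labelled no auxin and neither labelled auxin. They supplied 4 of the 34: F44E5.4, F44E5.5, hsp-16.49 and hsp-16.11, which are named here because of this pattern. The heat shock list has 19 genes, and the 34 starts are out of all 18607 genes. F44E5.4 and F44E5.5 share the same summit in each list labelled no auxin, and so do hsp-16.49 and hsp-16.11. The 4 starts are therefore not independent cases. A peak labelled auxin nonetheless lay over each of these 4 starts in both lists. Over the divergent HSP70 genes F44E5.4 and F44E5.5 (II:11756253-11762409), the peak was 6157 and 5848 bp wide in the lists labelled auxin, against 1113 and 3380 bp in those labelled no auxin. The summit lay 162 and 189 bp upstream of the F44E5.4 start in the lists labelled no auxin. In those labelled auxin it was 1852 bp downstream and 2067 bp upstream of that start. The small heat shock cluster of hsp-16.1, hsp-16.48, hsp-16.49 and hsp-16.11 (V:9086271-9091306) had peaks of 5036 and 4694 bp labelled auxin, against 969 and 4110 bp labelled no auxin. In no-auxin replicate 1 a separate peak had its summit 211 bp upstream of hsp-16.1, with a fold enrichment of 2.63, and the summits labelled auxin lay 224 and 394 bp upstream of that gene. The starts of hsp-16.49 and hsp-16.11 thus lay under a peak in all 4 lists, and the summit of the lists labelled auxin lay elsewhere in the cluster. Of all 34 such starts, 23 had a peak of both lists labelled auxin over the window, and 10 had none in either. Genes of this cluster are near-identical copies in inverted pairs, so reads could have been assigned to the wrong copy, and values at single copies are uncertain.

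A second pair, hsp-16.2 and hsp-16.41, had a broad peak of 2384 and 2372 bp in the lists labelled auxin, against 293 bp in no-auxin replicate 2 and no call in no-auxin replicate 1. Constitutive chaperone genes kept their summit in place. At hsp-110 it lay 227 and 224 bp upstream in the lists labelled auxin, against 233 and 225 bp in those labelled no auxin. At hsp-6, the mitochondrial HSP70, it lay 412 and 412 bp upstream labelled auxin, against 421 and 434 bp labelled no auxin. The hsp-1 peak was wider in the lists labelled auxin, at 4669 and 1418 bp, against 759 and 578 bp in those labelled no auxin, with its summit 366 to 416 bp upstream in all 4.

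Strain CA1200 is the one against which the authors compared the RNA of worms depleted of SMC-3 or of WAPL-1. Kept on auxin for 1 h, CA1200 gave 1 combined SMC-3 set of 6290 peaks, made by the authors over 2 libraries. Of the peaks labelled auxin in HW04, 68.6% and 65.9% overlapped it, against 86.1% and 84.9% of those labelled no auxin, a difference of −18.2 points (exact permutation p = 0.33). In lists of equal length the shares were 88.7% and 86.2% labelled auxin, against 87.2% and 84.9% labelled no auxin, and the difference was 1.39 points. From the other side, 81.8% and 84.3% of the CA1200 peaks lay at a peak labelled auxin, against 54.5% and 51.7% at one labelled no auxin. The CA1200 set had a median width of 589 bp, 304 peaks of 2 kb or more, and 19.3% of its peaks on X. Sites of all 4 lists overlapped the CA1200 set in 93.9%, sites labelled auxin alone in 61.5%, and 12 of the 28 sites labelled no auxin alone did. The share was 58.9% over all 9486 sites and 38.0% for sites with other patterns of calls. In strain JK05, in which SMC-3 itself is depleted, the combined set after 1 h of auxin held 361 peaks. Lists labelled auxin overlapped 81.7% and 68.7% of these 361, and lists labelled no auxin overlapped 77.6% and 65.4%.

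PQN-85, the loader, was mapped in the same strain with lists of 4070 and 1296 peaks labelled auxin, against 6553 and 12367 labelled no auxin. Among SMC-3 sites of all 4 lists, 18.4% overlapped a loader peak in both PQN-85 lists labelled auxin, against 85.2% in both labelled no auxin. For SMC-3 sites labelled auxin alone the shares were 4.46% and 45.5%. Over all 9486 SMC-3 sites they were 8.94% and 50.0%. The short list of 1296 peaks limits the shares labelled auxin. Over the 4 SMC-3 lists, 32.6% to 50.1% of peaks overlapped PQN-85 auxin replicate 1, but 10.5% to 16.9% overlapped replicate 2. For the PQN-85 lists labelled no auxin these ranges were 59.5% to 79.8% at replicate 1 and 74.5% to 88.8% at replicate 2. As the labels stand, the number of SMC-3 peaks was higher and the number of PQN-85 peaks lower with auxin. By the peak names both numbers were lower with auxin.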

How the data were processed

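Each of the 4 SMC-3 lists of strain HW04 was called on a single library against the input library given in the names inside the lists. Per the submitters' processing notes, the tools were SAMtools 1.11, Bowtie2 2.4.2, MACS3, MACS2 2.1.1 and deepTools 3.5.0, with no role or order given. The authors' score in the deposited lists is the −log10 q times 10, rounded to a whole number. The authors' ratio in those lists is the ChIP signal over the input signal at the summit, and the deposited −log10 q is the caller's own. Combined sets of strains CA1200 and JK05 were made by the authors over replicate libraries. The authors' RNA-seq tables of other strains gave mean normalized counts and 18607 gene starts, of which 18231 matched a RefSeq symbol.

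No build is stated for HW04, while the CA1200 set is labelled ce10. Over the last 25% of each chromosome, HW04 summits lay within 9 bp (median per list and chromosome) of CA1200 summits. Lists and gene starts were therefore joined by position.

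Groups followed the labels, and peaks overlapped where they shared at least 1 bp. Sites are merged peaks of the 4 lists, with the summit of the highest-ranked peak. The width given for a list at a named site is that of its highest-scoring peak there, and further peaks may lie in the site. Measures per library were compared with exact permutation tests, two-sided, on the log2 scale for numbers and widths, and adjusted over 10 measures. Alternatives were scores of at least 100, lists of 4091 peaks, groups by peak names, the replicate block, leaving out each library, other windows and other joining of sites. Named sites were up to 8 per class by the highest minimum percentile of score over the lists that call them, the 3 widest sites, and up to 4 members of each of 14 gene lists by the same rank. Members, lists and tests were chosen with earlier results of these data known. The scripts were tested on simulated data and ran in Python 3.11.15 with pandas 2.3.3, numpy 2.4.6 and scipy 1.17.1. The PQN-85 sets of other strains, the JK06 lists and site sequences were not used here.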

Additional observations from a re-analysis of the deposited data

How the results depend on the processing

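With groups by the peak names, each of the 10 differences between the groups took the opposite sign: −0.90 for the log2 number of peaks, −1.36 for log2 covered bases, −0.20 for the log2 median width, −3.25 points for peaks of 2 kb or more, −3.03 for X, −1.14 for chromosome centres, 7.07 for gene starts, −4.04 inside genes, −3.03 between genes and 18.2 at CA1200 peaks. In lists of equal length the sign also turned for gene starts (0.44 points), inside genes (−0.87) and at CA1200 peaks (1.39), while the difference between genes was 0.43. At scores of at least 100, which also drops weak peaks, these differences kept their sign, and the cause was not tested. At scores of at least 100 it turned for chromosome centres (−0.016 points). Without each library in turn, the difference in chromosome centres was −0.29 to 2.56 points and no other difference changed sign. Leaving out a library for the site counts was chosen after seeing the data. Sites labelled auxin alone then numbered 2313 to 3501, with 3501 and 3138 without auxin replicates 1 and 2. Sites labelled no auxin alone numbered 62 and 148 without auxin replicates 1 and 2, and 91 and 176 without no-auxin replicates 1 and 2, since 3 lists then set the class. Joining summits within 250 bp in place of overlapping peaks gave 132 sites labelled no auxin alone, against 28. The replicate block gave the same differences, such as 0.90 for the log2 number, with a sign-flip p that cannot go below 0.5. Replicate numbers were not shown to pair libraries, with a correlation of 0.12 between the deviations of same-numbered libraries over 2786 sites. A window of 250 bp or 1000 bp moved 28 counts of occupied starts by over 1.5 times, and those for all genes at 250 bp were 1448 labelled auxin and 1023 labelled no auxin. Depth is unknown, so sites without a call may lie below detection.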
